A study of Mus musculus with 6 samples.

Results

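NRF2, encoded by Nfe2l2, is the transcription factor that switches on antioxidant and detoxifying genes, and its relative NRF1 (Nfe2l1), its dimer partners, its competitor and the proteins that govern its decay are described here as 10 genes: Nfe2l2, Nfe2l1, Keap1, Cul3, Rbx1, Bach1, Mafg, Maff, Mafk and Sqstm1. They were taken by symbol from a table of 23242 transcripts of 11808 genes, in which they have 28 transcripts, and all 10 passed the filter of a mean of at least 1 FPKM (fragments scaled to transcript length and to all mapped fragments) over the libraries. The cells were primary vascular smooth muscle cells, which set the tone of arteries, isolated with collagenase from male C57BL/6 mice 6 weeks old. The label's "12*6-week-old" was read as 12 animals, and it does not say how animals were divided over libraries. All cells were kept in normal growth medium (alpha-MEM with serum), and RNA was profiled 48 h after lipid transfection with 20 nM of scrambled siRNA (siScrambled, labelled genotype WT) or of siRNA against Sirt7 (siSirt7, labelled genotype Sirt7 knockdown). There were 3 libraries in each group, and the question is which of these genes differ once Sirt7, a nuclear NAD-dependent deacylase enriched in nucleoli, is depleted.

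In unstressed cells KEAP1 binds NRF2 and presents it to a ubiquitin ligase built on the scaffold CUL3 and the RING protein RBX1, so that NRF2 is made and degraded continuously. Oxidants and electrophiles modify cysteines of KEAP1, NRF2 then escapes decay, enters the nucleus, pairs with a small MAF protein (MAFF, MAFG or MAFK) and binds antioxidant response elements. BACH1 occupies the same elements with the same small MAFs and represses them until heme displaces it. The autophagy receptor SQSTM1 (p62) binds KEAP1 and draws it into autophagy, and Sqstm1 is itself a known NRF2 target. NRF1 is held in the endoplasmic reticulum membrane, and after processing it induces proteasome subunit genes. Much of this control acts on proteins, which were not measured here.

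Sirt7, the targeted gene, was at 4.35, 3.56 and 4.48 FPKM in the siScrambled libraries and at 0.959, 1.25 and 0.360 FPKM in the siSirt7 libraries. The groups did not overlap, and the mean was 4.82-fold lower with siSirt7 (log2 fold change -1.49, SE 0.20, limma adjusted p = 0.00388). Library sums ran from 321944 to 333683 FPKM, and with no read counts in the table the sequencing depth is unknown. Of the 7 smooth muscle markers fixed for a check of the cell type, all were listed and tested, with summed levels of 2777 to 2816 FPKM in siScrambled and 2438 to 2645 FPKM in siSirt7 libraries, and 3 of them (Tagln, Cnn1 and Smtn) were lower. None of 6 endothelial and 4 lymphocyte markers is listed, nor are the macrophage markers Adgre1 and Ptprc, while the 4 listed macrophage markers summed to 18.8 to 21.8 FPKM in siScrambled and 20.7 to 23.6 FPKM in siSirt7 libraries. Of the other markers tested, 2 of 3 of adventitial fibroblasts, 1 of 2 of Schwann cells, 1 of 1 of skeletal and cardiac muscle, 1 of 3 of mesothelium and 0 of 1 of adipocytes were lower, and 0 were higher by limma, with 1 fibroblast marker higher at an unadjusted p under 0.05. The fibroblast markers summed to 68.6 to 84.0 FPKM with siScrambled and 75.1 to 76.5 FPKM with siSirt7. The mesothelium markers summed to 71.4 to 77.2 FPKM with siScrambled and 64.8 to 69.2 FPKM with siSirt7. The part of these marker shifts in the results below was not tested. Nothing in the labels ties the 3 libraries of a group to separate animals or cultures, so p-values cover only the scatter among these libraries, and that scatter may be technical. In bulk RNA, fewer cells expressing a gene and less of its RNA per cell cannot be told apart.

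Of the 10 genes, 4 rose with siSirt7 (Sqstm1, Nfe2l2, Mafg and Maff), 2 fell (Cul3 and Bach1) and 4 were not called (Mafk, Nfe2l1, Keap1 and Rbx1), by limma on log2(FPKM + 1) with Benjamini-Hochberg adjusted p under 0.05 over 10854 genes. Over all those genes 12.7% were higher and 12.5% lower, 25.2% in all, so 6 of 10 stands above that share, although the genes were chosen with earlier results known. At an unadjusted p under 0.05 there were 7 of the 10, against 37.9% of all tested genes. The groups did not overlap for 7 of the 10 genes, against 43.9% of all tested genes. The median log2 fold change of the 10 genes was 0.23, against -0.005 over all tested genes. Each log2 fold change below compares siSirt7 with siScrambled after adding 1 FPKM, which understates changes of low genes, and levels are FPKM summed over transcripts, as mean ± SD with n = 3 per group.

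**Figure D1:**
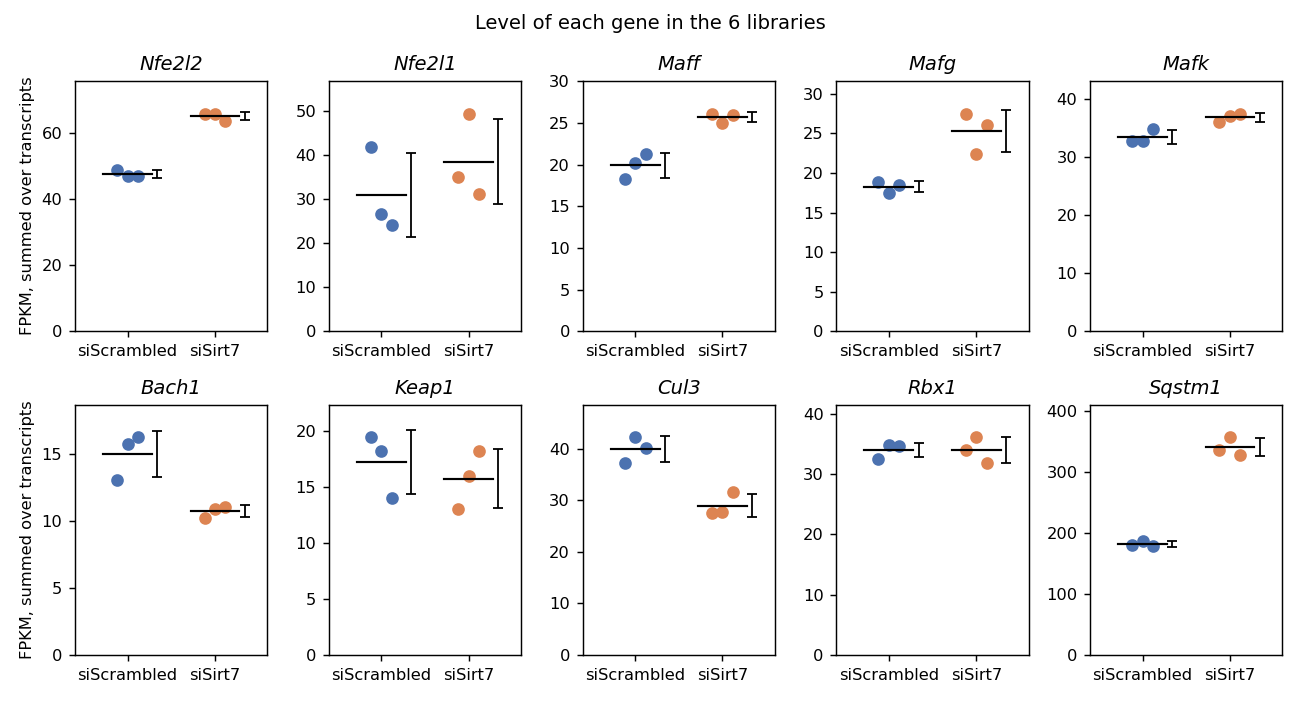
Level of each of the 10 genes (FPKM summed over transcripts, linear axis from 0) in the 3 siScrambled libraries (blue) and the 3 siSirt7 libraries (orange); horizontal lines are group means and the bars beside them ± SD. The groups stand apart for Nfe2l2, Maff, Mafg, Mafk, Bach1, Cul3 and Sqstm1, with Sqstm1 going from 182 to 341 FPKM, and they overlap for Nfe2l1, Keap1 and Rbx1.

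**Figure D2:**
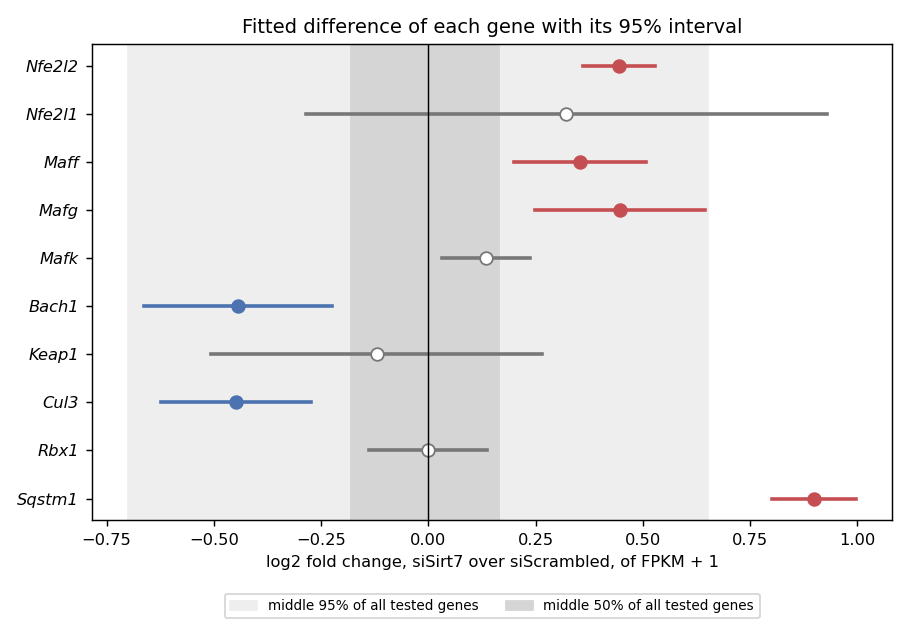
Fitted log2 fold change (siSirt7 over siScrambled, of FPKM + 1) of the 10 genes with 95% intervals; red marks genes called higher, blue genes called lower and open grey points genes not called. The grey bands hold the middle 50% (-0.18 to 0.16) and the middle 95% (-0.70 to 0.65) of all 10854 tested genes, and Sqstm1 at 0.90 lies outside the wider band.

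The words ATATGTA and TATGTAA, which earlier work on these data tied to lower fold changes when present in a 3′ UTR, were looked up in the 3′ UTRs of the 28 transcripts (GENCODE vM21, GRCm38). Of the 10 genes, Cul3 and Bach1 hold ATATGTA, and these are the 2 genes that fell. Cul3 also holds TATGTAA, and neither word is in the 3′ UTR of any listed transcript of the other 8. Nfe2l1-205 and Nfe2l1-209 have an annotated 3′ UTR of 0 bases, so there was nothing to search in them. The word CGGAGAA was looked up as well and was found in none of these 3′ UTRs. Each site is shown 5′ to 3′ on the strand of the gene with ATATGTA in capitals, because both genes that fell hold it.
Bach1 (chr16:87731847-87731875, plus strand): aaattatgtgtATATGTAtatatacatac
Cul3 first site (chr1:80265791-80265819, minus strand): taatgttttagATATGTAattggggaaaa
Cul3 second site (chr1:80265527-80265555, minus strand): aatttgcttttATATGTActgttaatttt
Cul3 last site (chr1:80265289-80265317, minus strand): aggtctaatgtATATGTAgggacataaag
The sites lie at position 1987 of 3475 bases in the 3′ UTR of Bach1-201 and at positions 1348, 1612 and 1850 of 2233 bases in that of Cul3-201. In the first Cul3 site the word is followed by a further A, so TATGTAA overlaps it there. The second listed Cul3 transcript, Cul3-202, has a 3′ UTR of 333 bases that holds neither word. Its level was 0, 2.99 and 1.97 FPKM with siScrambled and 2.17, 1.82 and 2.39 FPKM with siSirt7 (limma adjusted p = 0.687), while Cul3-201 went from 38.2 to 26.8 FPKM (log2 fold change -0.50, limma adjusted p = 0.0106). The difference between the 2 transcripts in response was not called (limma adjusted p = 0.798). Over the 10323 tested genes with a 3′ UTR of at least 50 bases in their most abundant transcript, 15.7% hold ATATGTA, of which 29.6% were called lower and 6.12% higher, against 9.63% lower and 14.2% higher among genes without it. Genes with and without the word were not matched for 3′ UTR length, and a longer 3′ UTR is more likely to hold any given word. In the most abundant transcripts of the other 8 genes that length ran from 448 bases (Nfe2l2-201) to 4167 bases (Mafg-201). The part of length in this contrast was not tested. The word was found in these same libraries, so its presence in the 2 genes is a description.

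Of the 4 genes that rose, 3 hold the letters TGACNNNGC, the core of the antioxidant response element, in a RefSeq promoter window (GRCm38.p6, 250 bases before to 50 after an annotated start), as does Mafk. All 10 genes matched, with 16 promoter windows, of which 4 hold the word on either strand. Of all 32851 promoter windows 12.4% hold it, and it was searched because NRF2 and BACH1 are known to bind such elements. Counted by gene, 4 of the 10 hold it in at least 1 window, against 14% of 27025 genes. Each match is shown 5′ to 3′ on the strand that carries it, with the matching letters in capitals.
Nfe2l2 (chr2:75704885-75704913, minus strand): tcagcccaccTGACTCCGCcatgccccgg
Mafg (chr11:120633751-120633779, plus strand): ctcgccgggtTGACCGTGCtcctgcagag
Maff (chr15:79346499-79346527, plus strand): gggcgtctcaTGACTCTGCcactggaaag
Mafk (chr5:139791513-139791541, minus strand): tccccagtacTGACACCGCttccgggatc
The match begins 240 bases before the RefSeq start in Nfe2l2, 222 in Mafg, 112 in Maff and 13 in Mafk, and for Mafg and Mafk it is on the strand opposite to the gene. The RefSeq start of Mafk is 23 bases from that of the nearest listed Mafk transcript, which begins at 139791513. The Mafk match, at 139791523 to 139791531, therefore lies inside that transcript and not before it. The Maff window belongs to a RefSeq start 920 bases from the nearest start of a listed Maff transcript. The same word with an A added at its end is in 3.04% of all promoter windows and in 0 of the 16. The promoter windows of Nfe2l1, Keap1, Cul3, Rbx1, Bach1 and Sqstm1 hold neither form, which says nothing of the sequence outside these 300 bases.

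Nfe2l2 (ENSMUSG00000015839.6, chromosome 2, 75675513 to 75704641, minus strand, GRCm38), the gene of NRF2 itself, rose by about the same amount in each siSirt7 library. Its level was 48.8, 47.0 and 46.8 FPKM with siScrambled and 65.8, 65.8 and 63.7 FPKM with siSirt7. The libraries of a group lay within a few FPKM of each other, and the mean went from 47.5 ± 1.11 to 65.1 ± 1.21 FPKM (SD, n = 3), a 1.37-fold rise (log2 fold change 0.45, SE 0.03, 95% interval 0.36 to 0.53, limma adjusted p = 0.000582). The gene has 1 listed transcript, so its level is not a sum over listed isoforms. Whether reads were also given to unlisted Nfe2l2 transcripts is unknown. Across the 6 libraries, the genes whose log2 level followed that of Nfe2l2 most closely, among 7383 with a mean of at least 5 FPKM, were Idh1, the cytosolic NADP-dependent isocitrate dehydrogenase (Pearson r = 0.999), the serine protease gene Prss23 (r = 0.999) and the membrane metalloprotease gene Adam19 (r = 0.998). With 2 groups of 3 libraries such an r mostly reflects the step between groups: 591 genes had an r above 0.95. Idh1 went from 31.0 ± 0.91 to 59.6 ± 1.26 FPKM, Prss23 from 330.1 ± 8.03 to 479 ± 13.1 FPKM and Adam19 from 30.6 ± 0.10 to 33.2 ± 0.27 FPKM, the last with a limma adjusted p of 0.0539.

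Nfe2l1 (chromosome 11, 96817414 to 96829968, minus strand), the gene of NRF1, was the least steady of the 10. It was at 41.9, 26.7 and 24.2 FPKM with siScrambled and at 35.01, 49.4 and 31.2 FPKM with siSirt7. The groups overlapped, since siScrambled replicate 1 lay above siSirt7 replicates 1 and 3, and siSirt7 replicate 2 was the highest of all. The log2 fold change of 0.32 had a 95% interval of -0.29 to 0.93 (limma adjusted p = 0.400). Replicate 1 of siScrambled and replicate 2 of siSirt7 are also the 2 libraries in which the transcript Nfe2l1-202 has a value, 11.6 and 19.8 FPKM, while it is listed at 0 in the other 4. With that transcript left out of the sum, an alternative chosen after the data were seen, the level was 30.4, 26.7 and 24.2 FPKM against 35.01, 29.6 and 31.2 FPKM. The groups still overlapped, and the log2 fold change was 0.23 (95% interval -0.01 to 0.47, adjusted p = 0.142). The ratio of Nfe2l2 to Nfe2l1 was 1.62 ± 0.40 with siScrambled and 1.75 ± 0.37 with siSirt7 (SD, n = 3, two-sided exact permutation p = 0.600).

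Among the small MAF genes, whose products lack an activation domain and serve as the DNA-binding partners of NRF2, NRF1 and BACH1, Maff and Mafg rose. Maff (chromosome 15, 79347541 to 79359072, plus strand) was at 18.3, 20.2 and 21.3 FPKM with siScrambled and at 26.1, 24.98 and 25.95 FPKM with siSirt7. The groups did not overlap, and the mean went from 19.9 ± 1.52 to 25.7 ± 0.62 FPKM (SD, n = 3), a 1.29-fold rise (log2 fold change 0.35, SE 0.06, limma adjusted p = 0.0102). Mafg (chromosome 11, 120625117 to 120633600, minus strand) was at 18.8, 17.5 and 18.5 FPKM with siScrambled and at 27.5, 22.4 and 26.1 FPKM with siSirt7. Here the siSirt7 libraries were spread more widely, with replicate 2 the lowest, and the mean went from 18.3 ± 0.70 to 25.3 ± 2.66 FPKM, a 1.39-fold rise (log2 fold change 0.45, SE 0.08, limma adjusted p = 0.0111). Mafg lies next to the targeted gene. In the GENCODE vM21 annotation (GRCm38) the 3′ end of Mafg and the 5′ end of Sirt7 overlap by 124 bases on the same strand. The listed Sirt7 transcripts reach only to 120625014 on their 5′ side, short of Mafg.

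Mafk (chromosome 5, 139791513 to 139802653, plus strand) was at 32.7, 32.7 and 34.8 FPKM with siScrambled and at 35.9, 37.0 and 37.4 FPKM with siSirt7. The groups did not overlap, yet the difference was small and missed the threshold (1.10-fold, log2 fold change 0.13, 95% interval 0.03 to 0.24, limma adjusted p = 0.0638). Whether Mafk differs in its response from Maff and Mafg was not tested. Summed over the 3 genes, small MAF transcripts went from 71.6 ± 2.60 to 87.8 ± 2.99 FPKM (SD, n = 3, 1.23-fold, two-sided exact permutation p = 0.1, the smallest that 3 against 3 libraries allow). Since the groups did not overlap for any of the 3 genes and all 3 were higher with siSirt7, this p was fixed by their values and adds no test. Mafk was the most abundant of the 3 in every library, while Maff and Mafg overlapped in level in both groups.

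Bach1 (chromosome 16, 87698945 to 87733346, plus strand), the repressor that competes with NRF2 for small MAFs and their sites, fell. It was at 13.0, 15.7 and 16.2 FPKM with siScrambled and at 10.2, 10.9 and 11.02 FPKM with siSirt7. Each siSirt7 library lay below each siScrambled library, with siScrambled replicate 1 the nearest to them, and the mean went from 15.0 ± 1.72 to 10.7 ± 0.45 FPKM (SD, n = 3), 1.40-fold lower (log2 fold change -0.44, SE 0.09, limma adjusted p = 0.0157). This call was lost without siScrambled replicate 2 (-0.41, adjusted p = 0.0567) and without siSirt7 replicate 1 (-0.41, adjusted p = 0.0514), while adjusted p ran from 0.00889 to 0.0567 over the alternatives. The ratio of Nfe2l2 to Bach1 was 3.76, 3.00 and 2.89 with siScrambled and 6.46, 6.05 and 5.78 with siSirt7. That is a rise of the mean ratio by a factor of 1.90, with no overlap (two-sided exact permutation p = 0.1, the smallest possible). With Nfe2l2 above and Bach1 below all siScrambled values in every siSirt7 library, the ratio could not overlap. Its p was thus fixed by the values of the 2 genes and adds no test.

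Of the 3 genes of the ligase that degrades NRF2, Cul3 fell and Rbx1 and Keap1 were not called. Cul3 (chromosome 1, 80264923 to 80340480, minus strand), the cullin scaffold, was at 37.2, 42.2 and 40.2 FPKM with siScrambled and at 27.6, 27.7 and 31.6 FPKM with siSirt7. The groups did not overlap, and the mean went from 39.9 ± 2.48 to 28.96 ± 2.26 FPKM (SD, n = 3), 1.38-fold lower (log2 fold change -0.45, SE 0.07, 95% interval -0.62 to -0.27, limma adjusted p = 0.00691). Rbx1 (chromosome 15, 81466316 to 81476369, plus strand), the RING subunit that recruits the ubiquitin-charged E2 enzyme to cullins, was at 32.5, 34.8 and 34.6 FPKM with siScrambled and at 34.01, 36.1 and 31.9 FPKM with siSirt7. Its libraries were interleaved, and the log2 fold change of -0.001 had a 95% interval of -0.14 to 0.14 (limma adjusted p = 0.995). The ratio of Cul3 to Rbx1 was 1.17 ± 0.04 with siScrambled and 0.857 ± 0.118 with siSirt7, without overlap (two-sided exact permutation p = 0.1, the smallest possible). This p was fixed by the ranges of Cul3 and Rbx1 given above and adds no test.

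Keap1 (chromosome 9, 21229730 to 21239361, minus strand), the cysteine-rich sensor and substrate adaptor, was at 19.4, 18.2 and 14.01 FPKM with siScrambled and at 13.0, 16.001 and 18.2 FPKM with siSirt7. The groups overlapped almost fully (17.2 ± 2.83 and 15.7 ± 2.62 FPKM, SD, n = 3, log2 fold change -0.12, 95% interval -0.51 to 0.27, limma adjusted p = 0.626), and the interval leaves room for a change of either sign. An antisense RNA gene, Gm16754, overlaps 3317 bases of Keap1 in GENCODE vM21, and the sources used here do not state whether counting used strand. The ratio of Nfe2l2 to Keap1 was 2.51, 2.59 and 3.34 with siScrambled and 5.05, 4.11 and 3.49 with siSirt7, close to touching between siScrambled replicate 3 and siSirt7 replicate 3 (two-sided exact permutation p = 0.1, the smallest possible). This p too was fixed by the ranges of Nfe2l2 and Keap1 and adds no test.

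Sqstm1 (chromosome 11, 50199366 to 50210827, minus strand) changed most of the 10 in size. It was at 179.7, 188 and 179 FPKM with siScrambled and at 337, 357 and 328 FPKM with siSirt7. Every siSirt7 library was far above every siScrambled library, and the mean rose 1.87-fold (log2 fold change 0.90, SE 0.04, 95% interval 0.80 to 1.00, limma adjusted p = 0.000113). The ratio of Sqstm1 to Keap1 went from 10.8 ± 1.82 to 22.1 ± 3.94 (SD, n = 3, two-sided exact permutation p = 0.1, the smallest possible). With the ranges of Sqstm1 and Keap1, no pairing of their values could overlap between groups, so this p adds no test. Sqstm1 starts 62 bases from the start of Mgat4b, a glycosyltransferase gene on the opposite strand, which was named after its values were seen and went from 23.0 ± 4.23 to 36.0 ± 0.84 FPKM (log2 fold change 0.64, limma adjusted p = 0.0125). At its other end Sqstm1 overlaps 750 bases of Mrnip, which had a mean of 1.63 FPKM with siScrambled and 0.98 FPKM with siSirt7.

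In order of level, Sqstm1 led in both groups and Nfe2l2 came second, each above the next gene in every library. With siScrambled, Cul3 came next at 39.9 FPKM and did not overlap with Rbx1 at 33.97 FPKM, while Rbx1, Mafk and Nfe2l1 overlapped in turn. Maff, Mafg, Keap1 and Bach1 closed the order, each overlapping with its neighbour, between 19.9 and 15.0 FPKM. With siSirt7, Cul3 stood sixth by mean, below Nfe2l1, Mafk and Rbx1. It did not overlap with Rbx1 (highest Cul3 31.57 FPKM, lowest Rbx1 31.85 FPKM), but Cul3 and Nfe2l1 overlapped in both groups. Mafg no longer overlapped with Keap1 with siSirt7, nor Keap1 with Bach1 at 10.7 FPKM.

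Single transcripts gave fewer calls than gene sums. Of the 28 listed transcripts 22 had a mean of at least 1 FPKM, and 5 of these were called, against 8.99% of all 17414 tested transcripts. Nfe2l2-201 (log2 fold change 0.45, limma adjusted p = 0.00207), Maff-201 (0.36, adjusted p = 0.0401) and Mafg-201 (0.35, adjusted p = 0.0244) were higher, and Cul3-201 and Bach1-201 (-0.44, adjusted p = 0.0494) were lower. Nfe2l2, Bach1 and Rbx1 have 1 listed transcript each. The count of called transcripts fell to 1 with the replicate number as a block and without siScrambled replicate 2.

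None of the 4 Sqstm1 transcripts was called, although the gene sum was. Sqstm1-202 was at 61.5, 167 and 61.2 FPKM with siScrambled and at 252, 118 and 288 FPKM with siSirt7 (log2 fold change 1.25, limma adjusted p = 0.249). Sqstm1-205, whose locus ends short of the others at its 3′ side, was at 104, 0 and 104 FPKM with siScrambled and at 0, 215 and 0 FPKM with siSirt7. The deposited estimate thus put 57.9%, 57.8% and 60.3% of the gene into Sqstm1-205 in siScrambled replicates 1 and 3 and siSirt7 replicate 2, and listed it at 0 in the other 3 libraries, in both groups. The sum over transcripts had an SD of 4.69 FPKM among siScrambled libraries and 14.8 FPKM among siSirt7 libraries all the same.

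Keap1 was split in another way. Keap1-201 took 66.3%, 62.8% and 20.4% of the gene with siScrambled and 9.93%, 14.3% and 19.1% with siSirt7. Keap1-202 took 27.2%, 30.7% and 63.4% with siScrambled and 67.7%, 73.2% and 71.4% with siSirt7, so siScrambled replicate 3 resembled the siSirt7 libraries. Keap1-202 alone was at 6.59 FPKM with siScrambled and 11.2 FPKM with siSirt7 (log2 fold change 0.70, limma adjusted p = 0.148), a direction opposite to that of the gene sum. A test of the balance between the most abundant transcript and the rest, over 4288 genes with more than 1 listed transcript, called 0 of the 7 genes that could be tested, against 0.07% of all (limma). At an unadjusted p under 0.05 it had 1 of the 7, Keap1 (limma adjusted p = 0.775), against 6.13% of all. For Mafg, Mafg-201 took 55.2%, 60.9% and 60.6% of the gene with siScrambled and 48.8%, 62.3% and 55.3% with siSirt7, and the balance changed by -0.17 on the log2 scale (95% interval -0.83 to 0.48).

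**Figure D3:**
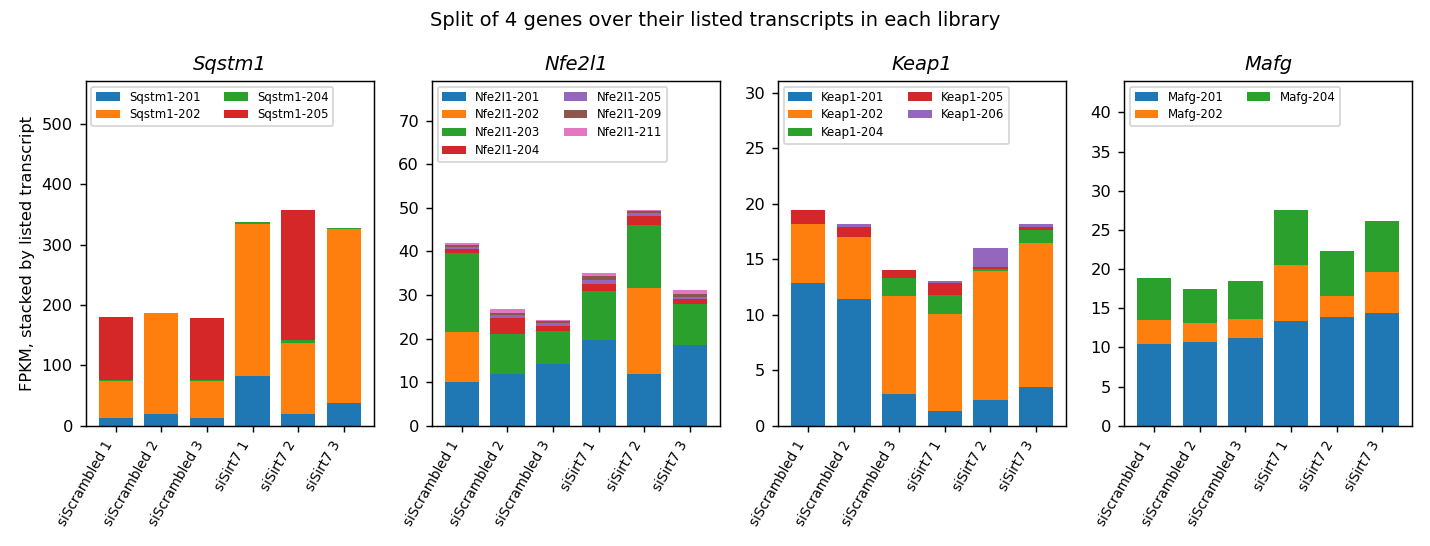
FPKM of each listed transcript, stacked per library, for Sqstm1, Nfe2l1, Keap1 and Mafg (linear axes from 0; 3 siScrambled and 3 siSirt7 libraries). The total of Sqstm1 is steady within groups while Sqstm1-205 switches between 0 and 104 or 215 FPKM, Nfe2l1-202 appears in 2 libraries only, and Keap1-201 is large in siScrambled replicates 1 and 2.

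Genes that NRF2 is known to induce rose together with Nfe2l2. Of 25 such target genes, all tested, 19 were higher (76.0%, against 12.7% of all tested genes) and 0 lower, with 21 higher and 1 lower at an unadjusted p under 0.05 (limma). Their median log2 fold change was 0.76, against -0.005 over all tested genes, and many of the list's genes were already known to have risen in these data. Hmox1, the heme oxygenase gene that BACH1 is known to repress, was at 56.8, 62.1 and 55.3 FPKM with siScrambled and at 265, 247 and 249.7 FPKM with siSirt7. Gsta3 and Gsta4, glutathione S-transferases, and Srxn1, sulfiredoxin, were the others with the smallest adjusted p, with log2 fold changes of 2.17, 1.02 and 1.55 (limma adjusted p = 7.6e-05 for each). Of the 6 target genes not called, Tkt, Gclm, Ftl1 and Abcc1 had log2 fold changes from 0.12 to 0.61 (adjusted p from 0.0656 to 0.572), and the epoxide hydrolase Ephx1 (-0.13, adjusted p = 0.0544) and Osgin1 (-0.22, adjusted p = 0.831) were below 0.

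The proteasome subunit genes, known targets of NRF1, rose in part. Of 31, all tested, 13 were higher (41.9%, against 12.7% of all genes) and 1 was lower, Psma3 (-0.30, limma adjusted p = 0.0237), with a median log2 fold change of 0.17. Psmd7, a subunit of the regulatory lid, was at 84.1, 83.0 and 83.7 FPKM with siScrambled and at 142, 138 and 143 FPKM with siSirt7 (log2 fold change 0.75, limma adjusted p = 7.6e-05). The core subunits Psma7 and Psma5 and the ATPase subunit Psmc2 had log2 fold changes of 0.39, 0.39 and 0.30. Psma3 lost its call in the fit with the replicate block and without any 1 of 5 libraries (siScrambled replicates 1 and 2 and each siSirt7 library). The number higher was 7 without any 1 of the siScrambled libraries and 8 without siSirt7 replicate 1 or 2 or without the trend and robust options of limma. Of 9 genes that process NRF1, among them the segregase Vcp (207 ± 1.94 and 211 ± 2.38 FPKM, adjusted p = 0.471), 0 were called by limma, with 1 higher and 0 lower at an unadjusted p under 0.05.

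The lists around the ligase and its substrates are read against the 12.7% of all tested genes that were higher and the 12.5% that were lower, 25.2% in all. Of 17 tested CUL3 substrate adaptors, 1 was higher and 3 were lower: Spop, which recruits nuclear substrates to CUL3, went from 35.5 ± 1.90 to 67.8 ± 1.77 FPKM (0.92 on the log2 scale, limma adjusted p = 0.000202), and Rhobtb3, Kctd10 and Klhl9 had log2 fold changes of -0.52, -0.31 and -0.17. The call of Klhl9 was lost without any of 5 libraries, with median-of-ratios scaling, with the replicate block and without the trend and robust options, with adjusted p up to 0.125. Of 9 genes of neddylation and cullin control, 1 was higher, Uba3 of the NEDD8-activating enzyme (0.22, adjusted p = 0.0252), and 0 were lower, with 3 lower at an unadjusted p under 0.05. Of 6 genes of the KEAP1-independent route through beta-TrCP, 1 was lower, the kinase gene Gsk3b (-0.34, adjusted p = 0.0435), and 0 higher, with none higher at an unadjusted p under 0.05 either. Gsk3b lost its call without any of 5 libraries and without the trend and robust options (adjusted p up to 0.122), and Uba3 without any of 4 libraries, after quantile normalization and with the replicate block (adjusted p up to 0.0807).

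Against the same 12.7% higher and 12.5% lower over all tested genes, of 12 tested partners of KEAP1 and SQSTM1 2 were higher, the autophagy receptor Nbr1 (0.23) and the autophagy kinase Ulk1 (0.39), and 2 lower, the kinase Ikbkb (-0.43) and the stress protein Sesn2 (-0.23). Of these 4, Nbr1 alone kept its call under every alternative tried. Of 10 coactivators, repressors and dimer partners, the AP-1 gene Fosl1 (0.85) and the chromatin remodeller Smarca4 (0.16) were higher and the acetyltransferase Ep300 (-0.40) and Jun (-0.25) were lower, with limma adjusted p from 0.000681 to 0.0393. Smarca4 lost its call without any of 5 libraries, after quantile normalization, with the replicate block and without the trend and robust options (adjusted p up to 0.136), and the other 3 kept theirs. Among other factors of the CNC and MAF families, Maf was at 42.1 with siScrambled and 42.2 FPKM with siSirt7 (limma adjusted p = 0.942), Nfe2l3 was at 1.30 and 0.79 FPKM (adjusted p = 0.140), and Nfe2, Bach2, Mafa and Nrl are not listed. The adaptors known to target BACH1 for decay, Fbxo22 and Fbxl17, gave 0 calls by limma and 0 at an unadjusted p under 0.05, and Fbxo22 was at 28.6, 30.4 and 16.3 FPKM with siSirt7 against 20.7, 20.1 and 19.7 FPKM with siScrambled.

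**Figure D4:**
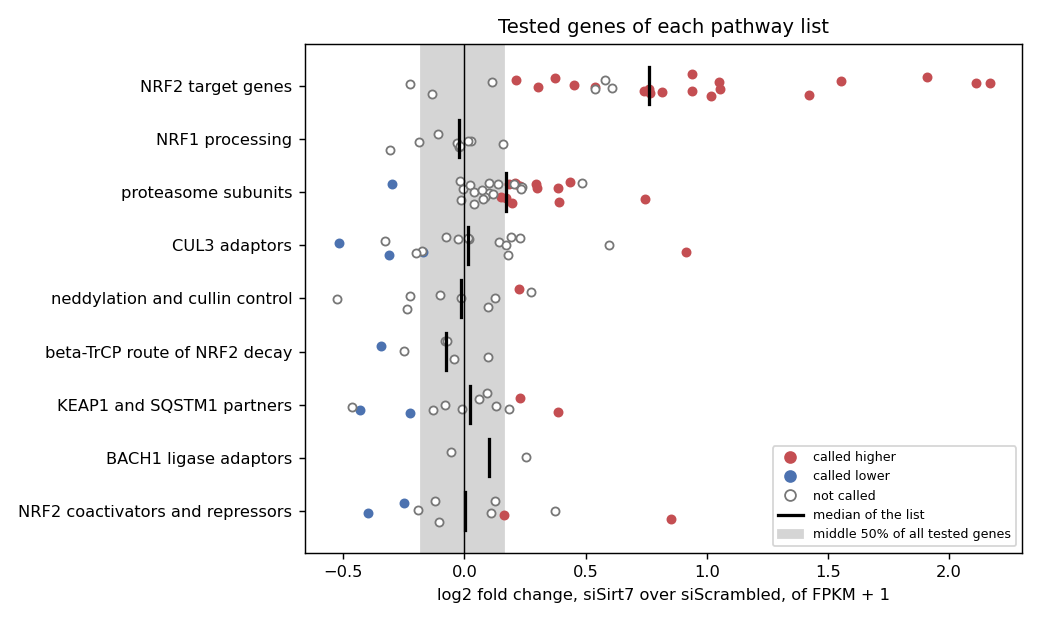
Log2 fold change (siSirt7 over siScrambled, of FPKM + 1) of each tested gene in 9 lists around NRF2; red points were called higher, blue points lower and open points were not called, black bars are list medians, and the vertical jitter has no meaning. The NRF2 targets have a median of 0.76 and the proteasome subunits of 0.17, while the medians of the other 7 lists lie between -0.08 and 0.10, inside the grey band of the middle 50% of all tested genes.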

How the data were processed

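Total RNA was extracted with TRIzol and made into 6 mRNA libraries with a commercial kit, per the labels' protocols. Per the submitters' processing notes, reads were aligned with HISAT2 to GRCm38 (mm10). Per the file headers, the deposited values are FPKM, 1 per transcript and library. The sources used here do not give how FPKM were estimated, HISAT2's version, the annotation release, strand use or the siRNA sequences. For each of the 23242 transcripts the higher group mean exceeds 0.5 FPKM, so weaker transcripts of the 10 genes were not analysed here. All listed transcripts are of 1 annotated type, and any of other types were not analysed either. A search for steps of whole reads made at most 22.3% of low values whole (within 10% of a read), against 20.0% for values spread evenly, so depth and counting error are unknown.

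Transcripts were summed to genes, and the 10854 genes that averaged 1 FPKM or more entered a test at the deposited scaling on log2(FPKM + 1) with limma 3.58.1 (trend and robust options, R 4.3.3) and Benjamini-Hochberg adjustment over all of them. The 17414 transcripts with such a mean and, for 4288 genes, the log2 ratio of the most abundant transcript to the rest were tested likewise. Single ratios were compared by exact permutation over libraries. The members and lists were chosen with earlier results of these data known. Named genes are Sirt7, the members, up to 4 called genes with the smallest adjusted p per pathway list (or the most abundant gene where none was called) and the 3 genes most like Nfe2l2, and other names were chosen after their values were seen. On simulated data with 200 changed features the gene test recovered 56.7% of 1.5-fold and 79.1% of 2-fold changes among 10854 genes, and the transcript test 13.4% and 26.9% among 17414 transcripts, while the ratio test recovered 50.7% of 4-fold changes among 4288 genes. The simulation called 163 genes and 77 transcripts, against 2736 and 1565 in the data, so its adjusted cutoff was stricter for these. For the ratio test it called 154 genes, against 3 in the data, so its cutoff was looser there. These shares therefore do not give the power of the tests on the data. As alternatives, each library was left out, the most abundant transcript replaced the sum, the replicate number entered as a block, pseudocounts were 0.1 and 0.5, the filter was dropped or raised to 5 FPKM, scaling was by median of ratios or by quantiles, and limma ran without its trend and robust options. Python 3.11.15, numpy 2.4.6, pandas 2.3.3 and matplotlib 3.10.9 were used for summaries and plots. The result of 1 gene of a pathway list is not reported here.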

Additional observations from a re-analysis of the deposited data

How the results depend on the processing

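Of 151 values of the 10 genes under the alternatives, 142 kept the direction and the side of the threshold. The calls of Nfe2l2, Mafg, Maff and Cul3 held under all of them, that of Bach1 was lost without 2 libraries as given above, and Sqstm1 lost its call when its most abundant transcript stood for the gene (log2 fold change 1.25, adjusted p = 0.177). Keap1 changed sign with its most abundant transcript (0.70, adjusted p = 0.0958) and ranged from -0.2529 to 0.0025 with each library left out. Rbx1, near 0, had 0.005 with median-of-ratios scaling and ranged from -0.0435 to 0.0434 with each library left out, while Vcp had -0.0115 after quantile normalization. None of these was called, and the cause was not tested. Members called lower ranged from 1 to 2 and NRF2 targets called lower from 0 to 1 with each library left out, the 1 being Ephx1, as also after quantile normalization and with a mean of at least 5 FPKM. Genes called lower ranged from 900 (without siScrambled replicate 2) to 1117, and called transcripts of the 10 genes from 1 to 4. Those transcripts numbered 3 after quantile normalization, 3 with no filter and 3 without trend and robust options.

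The replicate numbers do not pair the libraries by the labels, and libraries with the same number had correlations of 0.007, 0.03 and -0.02 between their deviations from the group means, with not every library closest to its own number. With the replicate number as a block, 4 members were higher and 2 lower, as without it, and 1 transcript was called. Without counts the limits set by depth cannot be given.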

Other observations

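The level of Fbxo22, the F-box adaptor known to target BACH1, was at 28.6 and 30.4 FPKM in siSirt7 replicates 1 and 2 and at 16.3 FPKM in siSirt7 replicate 3, below all siScrambled libraries. Without siSirt7 replicate 3 its log2 fold change was 0.53 (limma adjusted p = 0.00450), against 0.26 (adjusted p = 0.456) with all 6 libraries. With any other library left out it was 0.10 to 0.27 (limma adjusted p from 0.541 to 0.797). The fit without siSirt7 replicate 3 was singled out after the values were seen.

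Mgat4b, the divergent neighbour of Sqstm1, was at 20.8, 27.9 and 20.3 FPKM in the siScrambled libraries and at 35.3, 36.9 and 35.8 FPKM in the siSirt7 libraries. Its siScrambled replicate 2, the highest of its group, is also the siScrambled library in which Sqstm1-205 is listed at 0. The siSirt7 group shows the reverse: Mgat4b was highest in replicate 2, where Sqstm1-205 is at 215 FPKM, and lower in replicates 1 and 3, where Sqstm1-205 is at 0.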
